A study of Homo sapiens with 24 samples.

Results

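The response to TNFα was measured in HEK293 cells that carried the H133W mutant of SIRT6, on 6 arrays out of the 24 of the series. These were the 3 arrays of cells transfected with H133W and then given TNFα and the 3 arrays of cells transfected with H133W alone, taken by their labels, and all 54675 probe sets were compared between them. HEK293 is a human embryonic kidney line. The H133W protein lacks the deacetylase activity of SIRT6 because the histidine that contacts NAD+ is replaced by tryptophan. In both groups the cells carried a pCDNA3 plasmid with Flag-tagged H133W for 24 h on top of their own SIRT6. TNFα was given at 10 ng/ml, and the cells without it had carrier medium. The duration of TNFα exposure is 4 h by the methods of the study and 1 h by the design text deposited with the series. Transfection was transient and RNA was taken from whole wells, so that each array averages cells with and without the plasmid and cannot tell fewer responding cells from less RNA per cell. The same pair of conditions in cells with wild type SIRT6, cells with the empty vector and untransfected cells (3 arrays per condition, biological replicates) served for comparison, and none of these responses shares an array with that of H133W cells. Array number limits the precision of each value, and with 3 arrays against 3 an exact permutation test of a single value cannot fall below p = 0.1.

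TNFα is a cytokine that binds a receptor on the cell surface and sets off the kinase complex that destroys the inhibitor IκBα. NFκB, a dimer of Rel proteins, then enters the nucleus and turns on chemokines, adhesion molecules and its own inhibitors, which end the signal. SIRT6 is a nuclear sirtuin that removes acetyl groups from histone H3 and has been proposed to damp NFκB target genes, and the comparison asks how cells with the inactive enzyme respond.

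NFκB binds a short DNA motif, the κB consensus. It was searched on both strands of the 250 bases before the start of each gene in RefSeq promoters (GRCh38.p14), and matches on opposite strands could overlap. Of the 153 genes called up in H133W cells (0.774% of those measured, by the test given with the results) 117 had a promoter in this table, and 38 of them (32.5%) held the motif. It was in 12 of 96 promoters of genes called down (12.5%) and in 1701 of 15382 promoters of all measured genes (11.1%). Among the 15 largest rises it was found for 8 of 12 genes, and among the 15 largest falls for 2 of 11, BMF and WNT16. Promoters of CD69, CCL2 and TLR7 were not in the table. The windows of those 8 genes are shown because they are the promoters of the genes that rose most. Each runs 5′ to 3′ on the strand of the gene, with each match to the motif in capitals, and where matches on the 2 strands overlapped the whole stretch is in capitals. A match is a description of the letters and not a proven binding site.
CCL20: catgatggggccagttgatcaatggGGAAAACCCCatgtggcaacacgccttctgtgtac
CXCL10: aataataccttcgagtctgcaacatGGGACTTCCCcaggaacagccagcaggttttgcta
CXCL1: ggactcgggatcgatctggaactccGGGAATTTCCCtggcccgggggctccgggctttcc
CXCL2: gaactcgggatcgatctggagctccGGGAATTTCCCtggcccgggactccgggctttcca
CXCL3: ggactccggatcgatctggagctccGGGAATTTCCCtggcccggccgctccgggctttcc
TNFAIP3: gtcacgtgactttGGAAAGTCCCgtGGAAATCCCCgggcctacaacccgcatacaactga
VCAM1: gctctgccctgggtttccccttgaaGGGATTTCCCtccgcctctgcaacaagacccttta
SELE: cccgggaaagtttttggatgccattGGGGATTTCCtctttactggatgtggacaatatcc
The windows lie at chr2:227813738-227813797 (+) for CCL20, chr4:76023585-76023644 (-) for CXCL10, chr4:73869289-73869348 (+) for CXCL1, chr4:74099239-74099298 (-) for CXCL2 and chr4:74038734-74038793 (-) for CXCL3. Those of the other 3 genes lie at chr6:137867179-137867238 (+) for TNFAIP3, chr1:100719655-100719714 (+) for VCAM1 and chr1:169734139-169734198 (-) for SELE. CXCL1, CXCL2 and CXCL3 are neighbours on chromosome 4 with the same capitals. Of their 60 bases CXCL1 and CXCL3 shared 93.3%, CXCL1 and CXCL2 81.7%, and CXCL2 and CXCL3 80%. In all 8 windows the match nearest to the start lay between 46 and 122 bases before it, closest in TNFAIP3 (46 to 55 bases) and farthest in CXCL10 (113 to 122 bases). A second, separate match lay 58 to 67 bases before the start of TNFAIP3 and 168 to 177 bases before that of CXCL10, the last outside the window.

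SIRT6 itself is read by 2 probe sets, and neither gained or lost signal past the test with TNFα. The probe set of higher signal had log2 values of 9.58, 9.60 and 9.75 with TNFα and 9.86, 9.77 and 9.57 without it, and these overlap (change −0.0875, SE 0.29, adjusted p = 0.911). For the other the values were 8.55, 8.53 and 8.94 with TNFα, against 8.44, 8.47 and 8.38 without it, so that the stimulated arrays lay higher with replicate 3 highest (change 0.24, adjusted p = 0.196). Without TNFα the brighter probe set had means of 9.73 in H133W, 9.34 in SIRT6, 8.58 in empty vector and 8.74 in untransfected cells. Its SD was 0.15, 0.03, 0.78 and 0.64 in the same order. For the other probe set these means were 8.43, 8.42, 8.35 and 8.38. Whether either reads the part of SIRT6 that the plasmid carries is not stated in the sources used here, so neither checks the transfection. The study reports the expressed proteins by Western blot of cell extracts.

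The third stimulated array stands apart from the other 5 arrays of H133W cells. Control probe sets read β-actin and GAPDH near each end of the transcript, and signal that is much higher at the 3′ end than at the 5′ end is known from degraded RNA. The excess of the 3′ end was 3.03 on the log2 scale for β-actin on H133W + TNFα replicate 3 and 1.55 to 1.79 on the other 5 arrays, and 0.53 against 0.23 to 0.27 for GAPDH. Over all probe sets the SD of its log2 difference to its replicates was 0.49 and 0.50, against 0.19 between replicates 1 and 2. Its part in each result was not tested, and values without it are given as "without replicate 3". Among the 23 other arrays of the series empty vector replicate 2 had the largest excess, 2.05 for β-actin and 0.35 for GAPDH. That array entered each comparison with empty vector cells. Of 10 markers of HEK293 cells, among them NEFL, VIM, CDH2 and KRT18, none was called, and their mean log2 level was 9.16 to 9.23 with TNFα and 9.31 to 9.39 without it. PAX2 and LHX1, kidney markers, were dim at 4.80 and 5.24 with TNFα and at 5.31 and 5.33 without it. The change of PAX2 was −0.51 (adjusted p = 0.00441) and −0.46 without replicate 3 (adjusted p = 0.0228). It passed the p threshold and was not called because it was under 1.5-fold. NEFM was dim as well, at a mean of 5.11 over the 24 arrays (change −0.50, adjusted p = 0.192, and −0.20 without replicate 3). The lowest group mean of the HEK293 list was 4.66. Markers of blood cells (11 measured, mean 3.49 to 3.71 with TNFα and 3.44 to 3.51 without it) and of endothelium (10 measured, 3.86 to 4.08 and 3.86 to 3.94) were low, with each member under 5.0 on average apart from EGFL7 of the endothelial list at 6.23 with TNFα and 6.29 without it. For 12 fibroblast markers the means were 5.01 to 5.11 with TNFα and 5.01 to 5.18 without it, and PDGFRA was the 1 marker of these lists that was called.

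TNFα raised most CXC chemokines of neutrophils and most NFκB subunits and inhibitors in H133W cells, together with some members of other chemokine, cytokine and adhesion lists, and lowered other genes, among them the receptors KIT and PDGFRA, to a smaller extent. A gene was called when its probe set passed an adjusted p under 0.05 in limma (Benjamini-Hochberg over all probe sets) with a fold change over 1.5. The spread was estimated over all 24 arrays together and not within the 6 arrays of H133W cells. Each gene was read by its brightest probe set. By this rule 153 of 19775 genes were called up (0.774%) and 127 called down (0.642%), which correspond to 297 (0.543%) and 313 (0.572%) of the 54675 probe sets. Fitted on the 6 arrays alone, 49 of the 153 rises and 11 of the 127 falls were called. Without replicate 3 the calls were 141 genes up (0.713%) and 99 down (0.501%), and 283 (0.518%) and 202 (0.369%) probe sets. Of the genes called down 71 of 127 were still called without it, and of those called up 119 of 153. Replicate 3 was the most changed of the 3 stimulated arrays for 90 of the 127 falls and for 84 of the 153 rises. Leaving out 1 of the other stimulated arrays gave more calls, with 243 genes up and 271 down without replicate 1 and 206 up and 180 down without replicate 2. With each array centred on its median the share of upward calls among probe sets was 60.4% (362 up and 237 down), against 48.7% as deposited.

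Chemokines were among the genes raised most. CCL20, the ligand of the receptor CCR6 on lymphocytes, had log2 values of 10.08, 10.09 and 9.97 with TNFα, against 4.16, 4.57 and 4.17 without it, a change of 5.74 (SE 0.20, adjusted p = 1.51e-13) or 53.6-fold. CXCL10, a ligand of CXCR3 on T cells, was at 8.70, 8.47 and 7.85 with TNFα and at 3.39, 3.27 and 3.0 without it, a change of 5.12 (SE 0.17, adjusted p = 1.21e-13). CCL2, the monocyte chemokine MCP1, was at 9.14, 8.85 and 8.72 with TNFα and at 5.32, 5.57 and 5.74 without it (change 3.36, SE 0.16, adjusted p = 2.13e-11). In each of these 3 genes replicate 3 was the lowest of the stimulated arrays, and the groups lay far apart with no overlap. Without replicate 3 the changes were 5.78 for CCL20, 5.37 for CXCL10 and 3.45 for CCL2. CXCL11, another CXCR3 ligand, changed by 1.2 and CCL7, a relative of CCL2, by 0.63 (adjusted p = 0.00078 and 0.0324). CCL7 was dim, and its call was lost without H133W + TNFα replicate 1 or 2 or H133W replicate 1 or 2 (changes of 0.53 to 0.65, adjusted p = 0.0505 to 0.141). In all, 5 of 14 measured chemokines outside the neutrophil group were called up (0.774% of all genes), the 5 named, and none down. The median change of the 14 was 0.0756 against 0.0109 over all genes. The 9 that were not called changed by −0.23 to 0.53.

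The CXC chemokines that draw neutrophils through CXCR2 rose nearly as a group, 6 of 7 (0.774% of all genes), with a median change of 3.24. CXCL1 had values of 8.11, 8.31 and 8.60 with TNFα and 2.96, 3.68 and 3.36 without it, a change of 5.01 (SE 0.15, adjusted p = 3.04e-14). CXCL2 was at 8.26, 8.33 and 7.79 with TNFα and at 4.49, 4.73 and 4.75 without it (change 3.47), and CXCL3 at 8.89, 9.03 and 8.74 and at 5.45, 5.62 and 5.65 (change 3.31). CXCL8, also known as IL-8, was at 8.81, 8.97 and 8.64 with TNFα, against 5.49, 5.6 and 5.61 without it (change 3.24, SE 0.11). The spread within a group was small beside the gap for these 4 genes. CXCL6 changed by 2.39 and CXCL5 by 1.04, the last with a wide spread of 3.05, 3.17 and 3.98 over the stimulated arrays, against 2.35, 2.42 and 2.32 (0.75 without replicate 3). PPBP, a platelet chemokine of this family, was dim at 2.24 with TNFα and 2.25 without it and was the member not called. The group kept its 6 calls without replicate 3. Other probe sets of a gene could read less, such as those of CXCL2 down to 0.36 and of CXCL8 down to 1.21. Those of CXCL5 gave −0.0335 and 0.0838 and were not called, and its called probe set was dim.

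**Figure D1:**
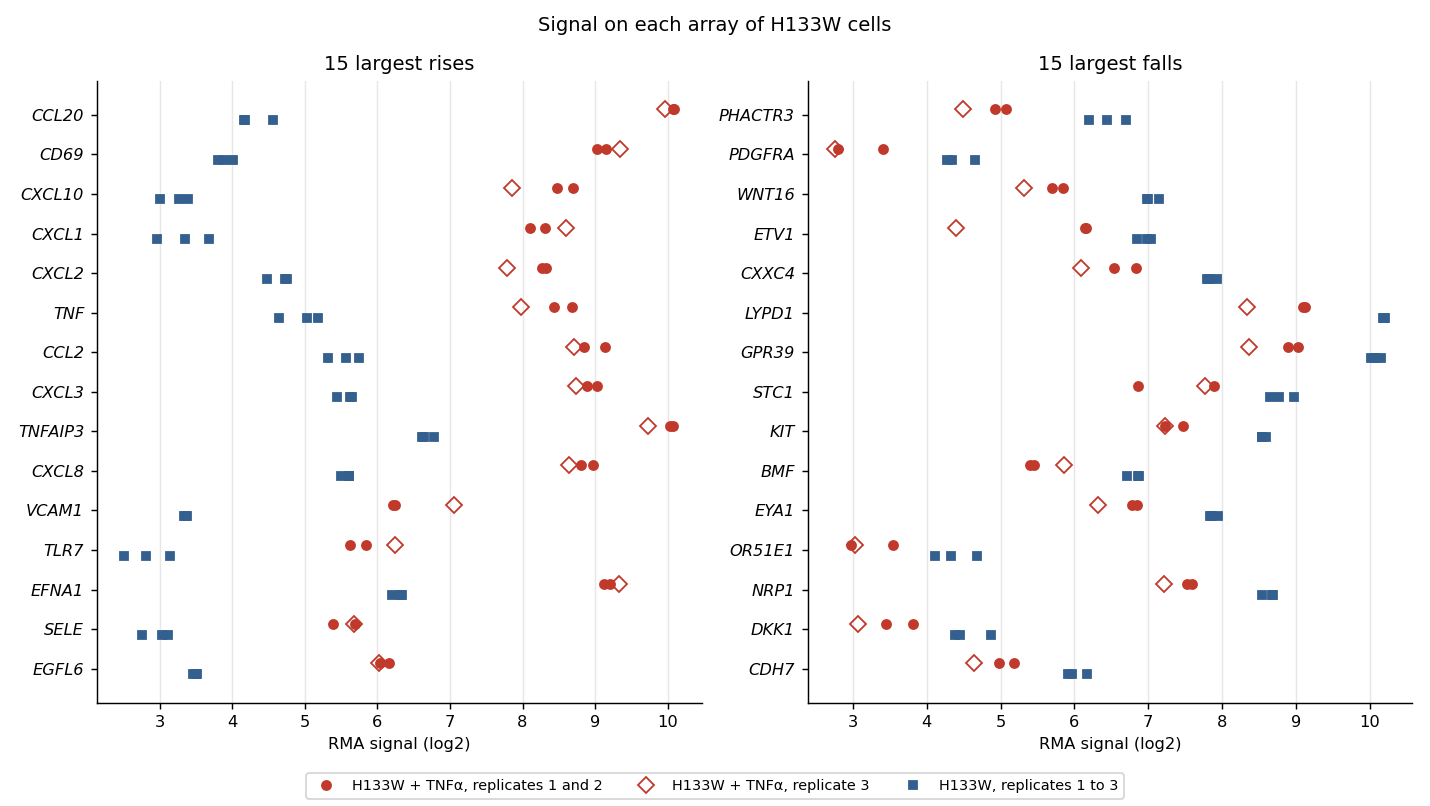
RMA signal (log2, horizontal axis) on each of the 6 arrays of H133W cells for the 15 genes with the largest rise (left) and the 15 with the largest fall (right), among called genes whose arrays do not overlap. Red marks are cells with TNFα, with replicate 3 as an open diamond, and blue squares are cells without it. The diamond is the lowest of the stimulated arrays for 11 of the 15 falls, most clearly for ETV1 at 4.40.

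Among cytokines and other ligands TNF itself rose. TNF was at 8.68, 8.43 and 7.98 with TNFα and at 5.03, 4.65 and 5.18 without it, a change of 3.41 (SE 0.20, adjusted p = 6.95e-10). EFNA1, a membrane-bound ligand of Eph receptors, was at 9.20, 9.12 and 9.33 with TNFα and at 6.2, 6.33 and 6.34 without it (change 2.93, SE 0.11, adjusted p = 7.02e-13). The stimulated arrays lay close together for EFNA1, and replicate 3 was the lowest of them for TNF. IL32, a cytokine of T and NK cells, changed by 1.56, and CSF1, the growth factor of macrophages, by 0.80. The call of CSF1 was lost without replicate 3 (change 0.59, adjusted p = 0.0531) and without H133W replicate 1 (0.75, adjusted p = 0.0572). These 4 were the called members of 18 (none down, 0.774% of all genes called up, median change 0.0965), and IL6 was at 4.52 with TNFα and at 4.58 without it. Of 15 TNF receptor family genes TNFRSF9, the costimulatory receptor 4-1BB, was the 1 called (none down, 0.774% of all genes called up, median 0.0849). TNFRSF9 was at 8.12, 8.0 and 6.51 with TNFα and at 5.78, 5.83 and 6.07 without it, and here replicate 3 lay much nearer to the cells without TNFα than its replicates did. The change was 1.65 (SE 0.28, adjusted p = 0.00162) and 2.16 without replicate 3 (adjusted p = 2.28e-07). TNFRSF1A, the main receptor of TNFα, was at 8.78, 8.72 and 9.01 with TNFα and at 8.85, 8.88 and 8.88 without it (adjusted p = 0.904). Among 26 genes that carry the signal from the receptor the kinase MAP3K8 (TPL2) was called up (change 1.05, SE 0.18, against 0.774% of all genes called up) and 25 were not called (−0.34 to 0.46). IL6 and TNFRSF1A were named after their values were seen.

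The subunits and inhibitors of NFκB formed a second group that moved, with 6 of 10 called up (0.774% of all genes), none down and a median change of 0.73 (0.96 without replicate 3). NFKBIA, which encodes IκBα, was at 10.42, 10.35 and 10.33 with TNFα and at 8.55, 8.54 and 8.45 without it, a change of 1.85 (SE 0.0724, adjusted p = 8.58e-13) or 3.61-fold. RELB, a subunit of the slower non-canonical pathway, was at 8.11, 7.89 and 8.17 with TNFα and at 6.34, 6.10 and 6.15 without it (change 1.86, SE 0.20). NFKB1, which encodes p105 and p50, was at 9.13, 9.10 and 9.5 with TNFα and at 7.76, 7.79 and 7.78 without it (change 1.47, SE 0.11). The stimulated arrays of these genes lay clear of the others, with NFKB1 highest on replicate 3. NFKB2, the p100 gene, changed by 1.53, with replicate 3 at 9.43 above 8.58 and 8.49 of its replicates, and by 1.24 without it. NFKBIZ, a nuclear IκB protein, changed by 0.79 and REL, the c-Rel subunit, by 0.66, and both were larger without replicate 3, at 1.02 and 0.89. Without stimulated replicate 1 or 2 REL was at 0.58 and 0.51, under the fold threshold. The members not called were RELA (change 0.14, adjusted p = 0.267), NFKBIB, NFKBID and NFKBIE, named here because they complete the list. Another probe set of NFKBID was called (change 1.04, SE 0.18, adjusted p = 0.0022, and 0.87 without replicate 3). RELA, the p65 subunit, was at 10.82, 10.84 and 10.69 with TNFα and at 10.64, 10.68 and 10.62 without it.

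Of 17 genes of feedback and survival downstream of NFκB 4 were called up (0.774% of all genes) and none down (median 0.15). TNFAIP3 encodes A20, an enzyme that edits ubiquitin chains and shuts off the receptor complex. It was at 10.08, 10.03 and 9.73 with TNFα and at 6.61, 6.64 and 6.78 without it, a change of 3.27 (SE 0.0904, adjusted p = 1.4e-14). IER3, an early gene linked to cell survival, was at 11.79, 11.67 and 11.67 with TNFα and at 9.60, 9.53 and 9.57 without it (change 2.14, SE 0.0717). The arrays of both genes fell into 2 tight groups. CYLD, another deubiquitinase, changed by 0.63 and TNIP1, a partner of A20, by 0.59, and both fell under the fold threshold without replicate 3 (0.51 and 0.43).

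Adhesion molecules had 4 of 15 members called up (0.774% of all genes) and none down, with a median of 0.21. VCAM1, which holds leukocytes on inflamed endothelium, was at 6.24, 6.21 and 7.05 with TNFα and at 3.37, 3.36 and 3.34 without it, so that replicate 3 lay above its replicates (change 3.14, SE 0.19, adjusted p = 1.43e-09, and 2.87 without replicate 3). SELE, E-selectin, was at 5.39, 5.70 and 5.68 with TNFα and at 2.76, 3.12 and 3.03 without it (change 2.62, SE 0.13). SDC4, a heparan sulfate proteoglycan, was at 11.37, 11.17 and 10.66 with TNFα and at 9.07, 9.18 and 9.20 without it (change 1.92, SE 0.12). NINJ1, which ruptures the membrane of dying cells, changed by 0.99 (0.70 without replicate 3). ICAM1, a ligand of leukocyte integrins, was not called by its brightest probe set, at 5.10, 5.23 and 5.12 with TNFα and 4.63, 5.16 and 4.62 without it (adjusted p = 0.255). A dimmer probe set of ICAM1 was at 4.55, 4.55 and 5.11 with TNFα and at 3.12, 3.46 and 3.23 without it, with no overlap, and was called (change 1.46, SE 0.14, adjusted p = 1.76e-06, and 1.28 without replicate 3). The probe sets of ICAM1 thus disagree, and the gene was named after its values were seen. Over all lists 11 of 566 members that were not called had another probe set that was. TLR7, the endosomal receptor of single-stranded RNA, was the 1 of 10 Toll-like receptors called (0.774% of all genes called up), at 5.62, 5.84 and 6.25 with TNFα and at 3.14, 2.51 and 2.81 without it (change 3.08, SE 0.16). CD69, an early activation marker of lymphocytes, was at 9.03, 9.15 and 9.34 with TNFα and at 4.02, 3.89 and 3.80 without it (change 5.27, SE 0.16, adjusted p = 3.21e-14), the widest gap after that of CCL20. EGFL6, a secreted protein with EGF repeats, was at 6.16, 6.04 and 6.02 with TNFα and at 3.5, 3.51 and 3.47 without it (change 2.58, SE 0.21).

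**Figure D2:**
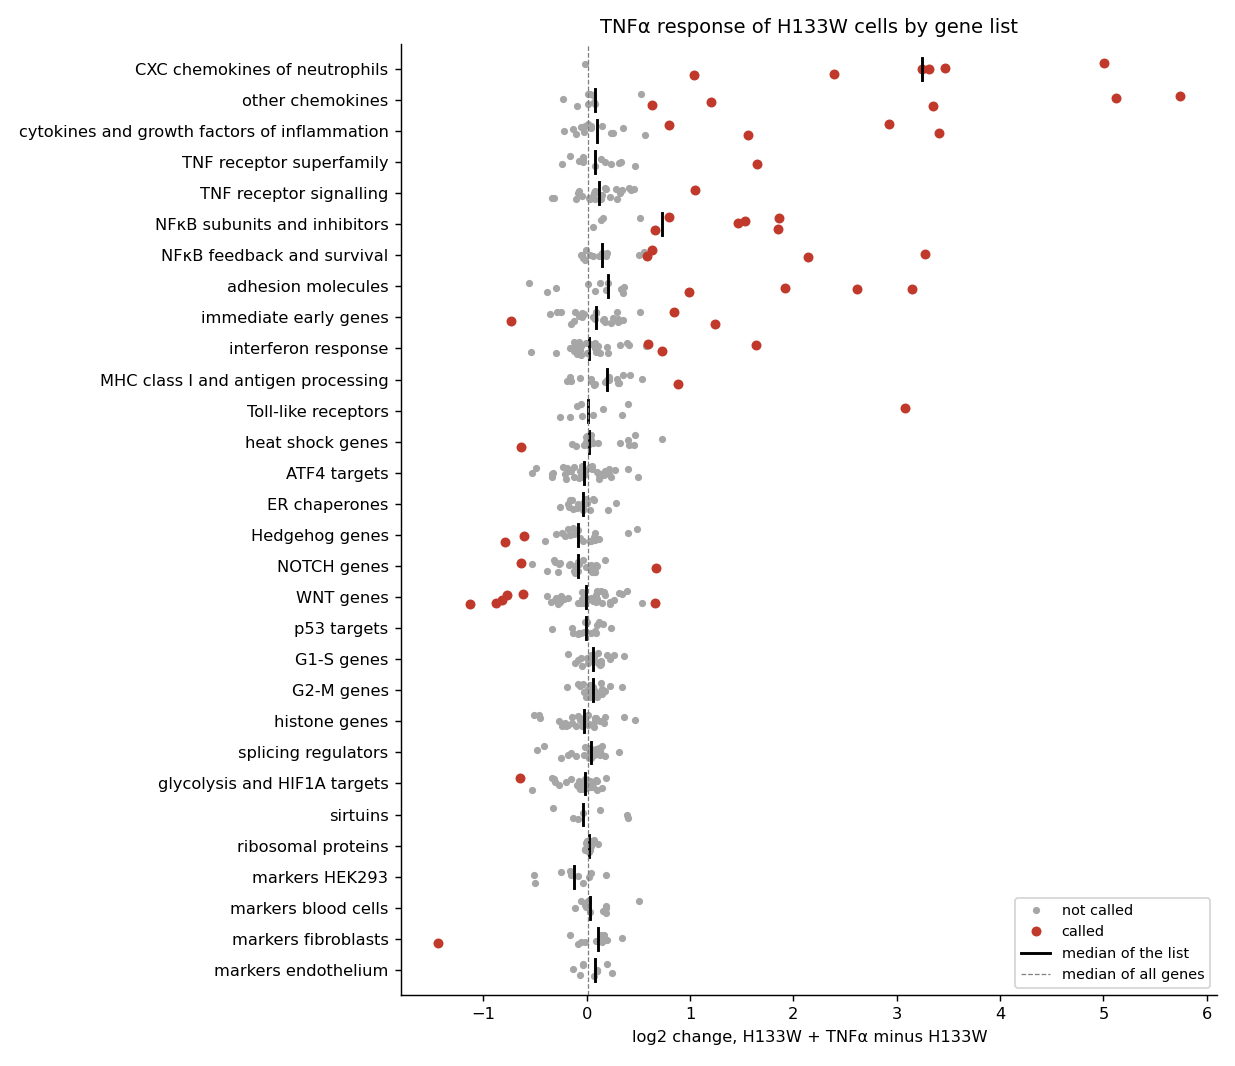
Log2 change with TNFα in H133W cells (horizontal axis) for the members of 30 gene lists. Each point is 1 gene, red where called, the black bar is the median of the list and the dashed line that of all genes (0.0109). The lists of CXC chemokines and of NFκB subunits and inhibitors hold 6 calls to the right each, other lists 5 or fewer, and the WNT list holds 5 calls to the left.

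Early response and interferon genes took a smaller part. Of 28 immediate early genes JUNB, an AP-1 subunit, changed by 1.24 (SE 0.0794), ZFP36, which destabilises cytokine mRNA, by 0.85, and MYC by −0.73 (SE 0.13, adjusted p = 0.00184), while 25 were not called (median of the list 0.0892). Over all genes 0.774% were called up and 0.642% down. MYC was at 8.95, 8.69 and 8.86 with TNFα and at 9.61, 9.58 and 9.5 without it, with no overlap. Of 32 interferon genes 3 were called up (0.774% of all genes) and none down (median 0.0212). IRF1, a transcription factor of interferon responses, was at 8.86, 8.75 and 8.79 with TNFα and at 7.16, 7.11 and 7.20 without it (change 1.64, SE 0.0682). IRF2, a relative that competes with IRF1, changed by 0.73 and IFIH1, the RNA sensor MDA5, by 0.60, the last under the fold threshold without replicate 3 (0.52). Of 19 genes of MHC class I and antigen processing TAPBP, which loads peptides, was the 1 called (0.774% of all genes called up), with a change of 0.88 (SE 0.0756, median of the list 0.20).

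The largest falls were smaller than the largest rises on the log2 scale and included several membrane receptors. PHACTR3, which binds actin and protein phosphatase 1, was at 5.08, 4.92 and 4.49 with TNFα and at 6.70, 6.44 and 6.19 without it (change −1.61, SE 0.15, adjusted p = 9.78e-07). PDGFRA, a receptor of platelet-derived growth factor, was at 3.41, 2.80 and 2.76 with TNFα and at 4.65, 4.35 and 4.28 without it (change −1.44, SE 0.18, adjusted p = 6.65e-05). KIT, the receptor of stem cell factor, was at 7.48, 7.22 and 7.23 with TNFα and at 8.54, 8.60 and 8.53 without it (change −1.25, SE 0.0853, adjusted p = 8.95e-09). KIT moved alike on its 3 stimulated arrays, whereas PDGFRA lay near the floor with TNFα and PHACTR3 was lowest on replicate 3. GPR39, a zinc-sensing receptor, was at 9.03, 8.90 and 8.36 with TNFα and at 10.02, 10.07 and 10.15 without it (change −1.31), and its 3 probe sets were all called, at −1.31 to −0.93. NRP1, a coreceptor of semaphorins and VEGF, was at 7.59, 7.53 and 7.22 with TNFα and at 8.69, 8.67 and 8.54 without it (change −1.19). LYPD1, a membrane-anchored protein of the Ly6 family, was at 9.13, 9.09 and 8.33 with TNFα and at 10.21, 10.19 and 10.17 without it (change −1.34, and −1.08 without replicate 3). In these 3 genes replicate 3 was the lowest of the stimulated arrays.

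ETV1, an ETS transcription factor, showed the widest spread of the 15 falls, at 6.16, 6.14 and 4.40 with TNFα and at 7.03, 6.98 and 6.85 without it. Its change of −1.39 (SE 0.30, adjusted p = 0.0121) was −0.81 without replicate 3 (adjusted p = 0.0071), so that array carried much of its size. Without H133W replicate 1 or 2 it missed the test (adjusted p = 0.0554 and 0.0512), and of its 5 probe sets 1 was called. For PDGFRA and NRP1, too, 1 of 4 probe sets was called, and the others ranged up to 0.0318 and −0.28. BMF, a BH3-only protein that promotes apoptosis, was highest on replicate 3 among the stimulated arrays, at 5.45, 5.4 and 5.86 with TNFα and at 6.71, 6.85 and 6.88 without it (change −1.24, and −1.39 without replicate 3). STC1, a secreted glycoprotein hormone, was at 7.89, 6.87 and 7.77 with TNFα and at 8.77, 8.65 and 8.97 without it (change −1.29, SE 0.22, adjusted p = 0.00162), with replicate 2 lowest. EYA1, a phosphatase and coactivator of kidney development, changed by −1.23, CDH7, a cadherin, by −1.08 and OR51E1, an olfactory receptor, by −1.19 (adjusted p = 8.08e-06, 0.000924 and 0.00414). OR51E1 changed by −2.07 in SIRT6 cells, −2.17 in empty vector cells and −1.59 in untransfected cells, and these differences did not pass the test (adjusted p = 0.851, 0.567 and 0.706). Of the 15 largest falls 14 kept their call without replicate 3, and the 15 largest rises all did.

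Of 43 WNT genes 5 were called down (0.642% of all genes), DKK1, FZD4, FZD2, LGR5 and FZD5, and NKD2 was called up (0.774% of all genes; median of the list −0.0041). FZD4, a WNT receptor, was at 8.0, 7.97 and 7.78 with TNFα and at 8.84, 8.79 and 8.74 without it (change −0.87, SE 0.0656, adjusted p = 3.87e-08), and it was the 1 member of this list called without replicate 3 (−0.81), where 0.501% of all genes were called down. DKK1, a secreted WNT antagonist, was at 3.81, 3.44 and 3.06 with TNFα and at 4.87, 4.44 and 4.39 without it (change −1.13, adjusted p = 0.00933), with groups that do not overlap and low signal, and it missed the test without replicate 3 (−0.94, adjusted p = 0.0521) and without H133W replicate 1 (−0.98, adjusted p = 0.0685). The receptors FZD2 (−0.82), FZD5 (−0.61) and LGR5 (−0.77) were at −0.54, −0.49 and −0.43 without replicate 3, LGR5 also missed the test without H133W replicate 1 or 2 (adjusted p = 0.0627 and 0.0503), and NKD2, an inhibitor inside the cell, was at 0.66 and 0.53. WNT16, a ligand, was at 5.84, 5.69 and 5.31 with TNFα and at 7.14, 6.99 and 7.0 without it (change −1.42, SE 0.13). Its other probe set was not called (change −0.0794, adjusted p = 0.737). CXXC4, which binds Dishevelled and damps WNT signals, was at 6.84, 6.53 and 6.08 with TNFα and at 7.93, 7.80 and 7.83 without it (change −1.37, SE 0.16). WNT16 and CXXC4 are not members of the list of 43 and are named because they were among the 15 largest falls. Both kept their calls without replicate 3.

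Of 21 Hedgehog genes 2 were called down (0.642% of all genes) and none up (median −0.0806). PTCH1, the receptor of Hedgehog ligands, was at 8.99, 8.95 and 9.04 with TNFα and at 9.81, 9.81 and 9.74 without it, in 2 tight groups (change −0.79, SE 0.0707, adjusted p = 4.87e-07). It was the 1 of its 5 probe sets called, and the others ranged up to 0.32. GAS1, a coreceptor, changed by −0.61 (−0.45 without replicate 3). Of 27 NOTCH genes MAML2 was called up at 0.67 (0.774% of all genes) and MAML3 down at −0.63 (0.642%), both coactivators (median −0.0847). Another probe set of MAML2 gave −0.0242, and MAML3 missed the test without H133W replicate 1 (−0.53, adjusted p = 0.0538). EGLN3, a HIF prolyl hydroxylase, was the 1 of 29 genes of glycolysis and HIF1A targets called (0.642% of all genes called down, median of the list −0.0171). It changed by −0.65 (SE 0.0925), and by −0.56 without stimulated replicate 2.

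Among 22 heat shock genes CRYAB, a small heat shock protein, was called down (0.642% of all genes) and none up (median 0.0195). CRYAB was at 7.49, 7.38 and 7.29 with TNFα and at 8.03, 7.98 and 8.05 without it (change −0.64, SE 0.0828, adjusted p = 8.73e-05), with no overlap. Its level was far above that of the other cells in both conditions, with means of 7.38 and 8.02 in H133W cells, 4.63 and 4.73 in SIRT6 cells, 3.97 and 4.25 in empty vector cells and 4.23 and 4.22 in untransfected cells, each with and without TNFα. DNAJB1, an HSP70 cochaperone, was at 12, 11.95 and 11.95 with TNFα and at 11.55, 11.61 and 11.55 without it, a change of 0.40 (SE 0.0519, adjusted p = 9.26e-05) that is below the fold threshold.

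Over all genes 0.774% were called up and 0.642% down, and lists of the sizes given next lie near that share without a call. No member was called among 40 ATF4 targets, 21 ER chaperones, 16 p53 targets, 25 genes of the G1-S and 27 of the G2-M stage, 34 histone genes, 33 splicing regulators, 7 sirtuins and 22 ribosomal protein genes. Their median changes were −0.0299, −0.0366, −0.0103, 0.0635, 0.0629, −0.0282, 0.0399, −0.0321 and 0.0225, against 0.0109 over all genes. Single members came near. VLDLR, a lipoprotein receptor in the ATF4 list, changed by −0.53 (adjusted p = 0.00124) and was called without replicate 3 at −0.60, and PPP1R15A, a phosphatase subunit of the stress response, changed by 0.50 (adjusted p = 0.000508). SIRT1 was at 9.20, 9.36 and 9.35 with TNFα and at 8.98, 8.95 and 8.78 without it, a change of 0.40 below the fold threshold (adjusted p = 0.036, and 0.0969 without replicate 3). SIRT7 changed by 0.39 (0.15 without replicate 3) and SIRT5 by −0.33 (−0.21), and the changes of SIRT2, SIRT3 and SIRT4 were −0.13, −0.0321 and 0.13. Of the 9 genes named in the text of the study CXCL10, CCL2, TLR7 and NHLH1 were called up and none down. The study drew most of these 9 from the same arrays, so the calls lend no separate support. From its genes raised in H133W over empty vector cells with TNFα came NHLH1, GLI1, OLIG2, VEGFA and CD24. That choice used the 3 stimulated H133W arrays read here. NHLH1, a neural transcription factor, was at 6.48, 6.47 and 6.65 with TNFα and at 5.89, 5.82 and 5.96 without it (change 0.64, adjusted p = 0.0147, and 0.58 with adjusted p = 0.0589 without replicate 3). Its call was also lost without H133W replicate 1 or 2 (adjusted p = 0.0556 and 0.0719). GLI3, GLI1, CD24, OLIG2 and VEGFA changed by −0.29, −0.18, −0.37, −0.13 and 0.10 and were not called. The other probe sets of VEGFA gave −0.52 to −0.30 and those of CD24 −0.31 to 0.55, none of them called. The change of CD24 was −0.10 without replicate 3.

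**Figure D3:**
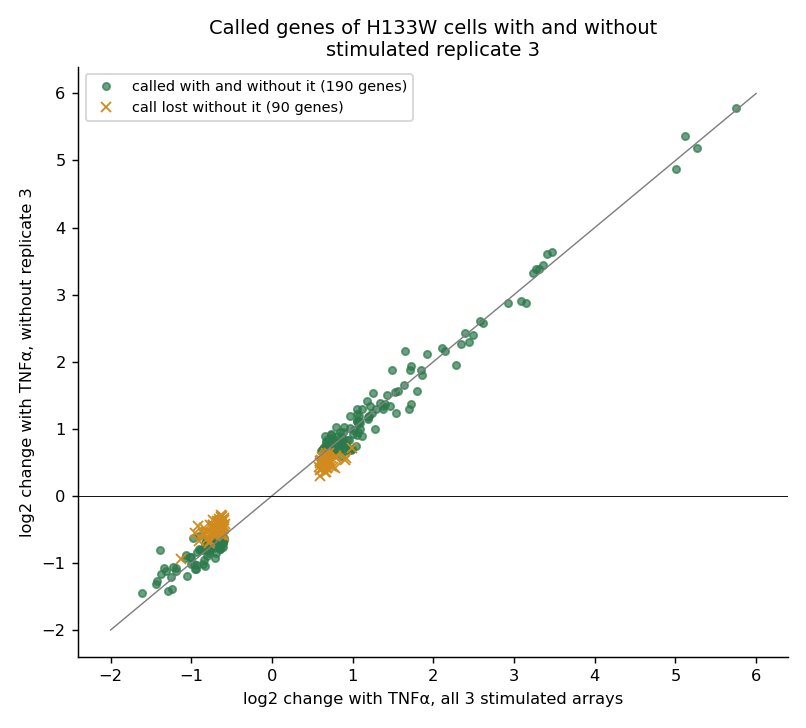
Log2 change with TNFα for the 280 called genes of H133W cells, with all 3 stimulated arrays (horizontal axis) and without stimulated replicate 3 (vertical axis). Green points are the 190 genes called both ways, orange crosses the 90 called with all arrays alone, and the grey line marks equal change. The crosses crowd near the fold threshold, 56 of them among the falls.

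To set the response beside that of the other cells, probe sets were taken that were called in untransfected cells, on arrays that the transfected cells do not share. There were 329 that rose and 95 that fell. In H133W cells 324 of the 329 changed in the same direction and 189 were called up (0.543% of all probe sets), against 225 in SIRT6 cells and 250 in empty vector cells. Over all 54675 probe sets 275 were called up in SIRT6 cells and 319 in empty vector cells. Their median change was 0.68 in H133W cells, 0.82 in SIRT6 cells, 0.83 in empty vector cells and 0.94 in the untransfected cells that chose them. Without replicate 3 the median in H133W cells was 0.70 and the calls were 191. On the H133W arrays the mean log2 level of this set was 7.37 ± 0.0443 with TNFα and 6.44 ± 0.0052 without it (SD, n = 3). It was 7.43 ± 0.0195 and 6.34 ± 0.0132 in SIRT6 cells, 7.41 ± 0.0372 and 6.29 ± 0.0217 in empty vector cells, and 7.36 ± 0.0676 and 6.13 ± 0.0809 in untransfected cells, with and without TNFα. The stimulated level of H133W cells overlapped with that of each of the other cells, while without TNFα the 3 H133W arrays lay above the 9 arrays of the other cells. For the 95 that fell the median change was −0.76 in H133W cells, −0.79 in SIRT6 cells, −0.74 in empty vector cells and −0.72 in untransfected cells. In H133W, SIRT6 and empty vector cells 62, 74 and 69 of them were called down. Over all 54675 probe sets 313 (0.572%), 187 and 151 were called down in the same order. These sets are given as a description with no test.

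**Figure D4:**
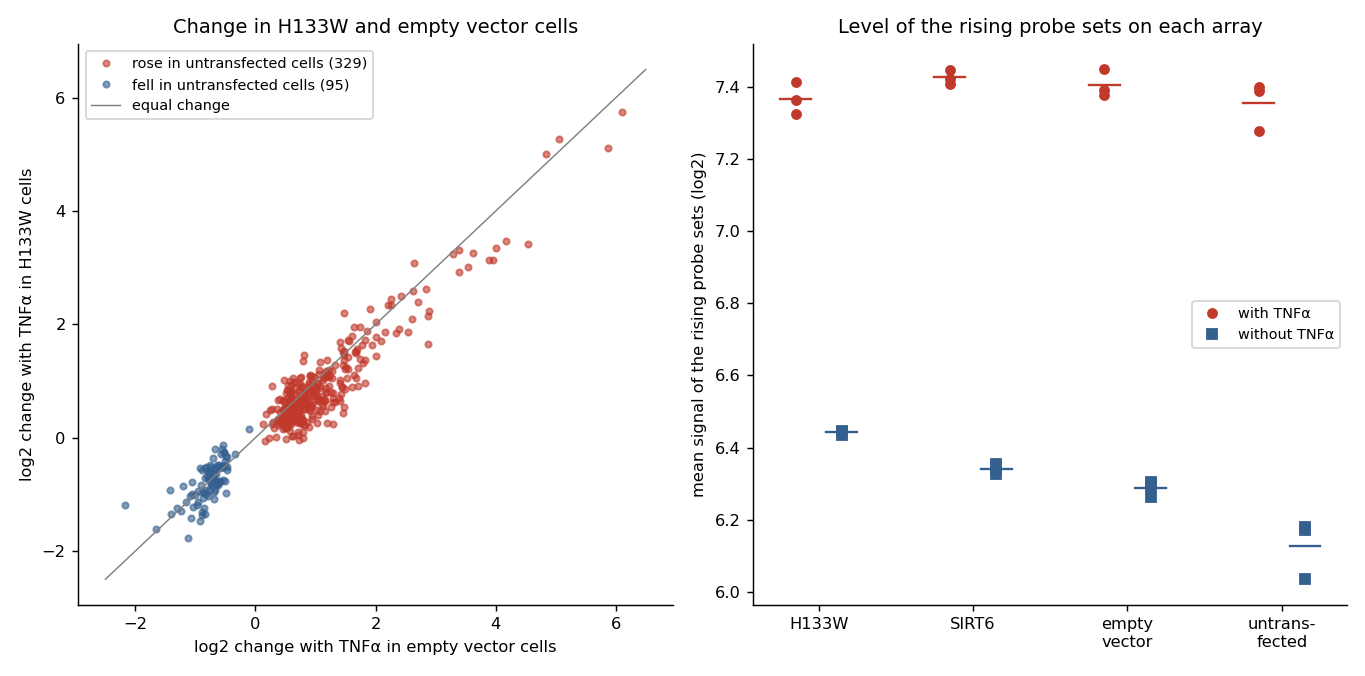
Left, log2 change with TNFα in H133W cells (vertical axis) against empty vector cells (horizontal axis) for the 329 probe sets that rose (red) and the 95 that fell (blue) in untransfected cells, with the grey line at equal change. Right, mean log2 signal of the 329 rising probe sets on each array by kind of cell, red with TNFα and blue without it, with bars at the means. The stimulated H133W arrays overlap with those of each of the other cells, and without TNFα the H133W arrays lie highest at 6.44.

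Genes called up numbered 153 in H133W cells (0.774%), 154 in SIRT6 cells (0.779%), 155 in empty vector cells (0.784%) and 167 in untransfected cells (0.845%). Genes called down numbered 127 (0.642%), 100 (0.506%), 93 (0.47%) and 66 (0.334%) in the same order. Of the 153 rises of H133W cells 100 were called in all 3 other cells and 25 in none of them. Of the 127 falls 38 were called in all 3 and 56 in none. Without replicate 3 those called in none were 16 of 141 rises and 22 of 99 falls. A call in H133W cells without one elsewhere does not show a difference, and no gene called in H133W cells alone passed the test of the difference. There were 21 genes called in H133W cells with and without replicate 3 and in no other cells, 14 falls and 7 rises, and a few are named here after their values were seen. PDGFA, a ligand of PDGFRA, changed by −0.89 in H133W cells, −0.56 in SIRT6 cells, −0.44 in empty vector cells and −0.23 in untransfected cells. MYC changed by −0.73, −0.49, −0.35 and −0.21 in the same order, HMOX1, which degrades haem, by −0.64, −0.50, −0.55 and −0.20, and ID2, an inhibitor of bHLH factors, by −0.60, −0.43, −0.39 and −0.27. The other cells moved in the same direction for these 4 genes, below the fold threshold. LINC00845, a non-coding RNA, was at 3.62, 3.39 and 3.30 with TNFα and at 2.82, 2.71 and 2.85 without it, dim but separate (change 0.64, and 0.54 without replicate 1), and it changed by −0.0592, −0.0376 and −0.0683 in the other cells.

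The difference between responses was tested as an interaction in the same fit. Against empty vector cells 2 of the 54675 probe sets passed an adjusted p under 0.05 (0.00366%), against untransfected cells 2 (0.00366%) and against SIRT6 cells 0. The plain linear model called 3, 8 and 0 in the same order, the fit with array weights 3, 40 and 1, and the fit without dim probe sets 3, 14 and 0. An unadjusted p under 0.05 was found for 4623 probe sets against empty vector cells (8.46%, and 4.14% without replicate 3), 4373 against untransfected cells (8.0%, and 5.74%) and 2192 against SIRT6 cells (4.01%, and 2.80%). IER3 and CALCB were called in both of the first comparisons, with a smaller change in H133W cells. IER3 changed by 2.14 in H133W cells, 2.53 in SIRT6 cells, 2.87 in empty vector cells and 3.01 in untransfected cells. The difference was −0.73 against empty vector cells (SE 0.10, adjusted p = 0.0192) and −0.87 against untransfected cells (adjusted p = 0.00133), and −0.39 against SIRT6 cells (adjusted p = 0.851). Its stimulated means lay close together, at 11.71 in H133W cells, 11.79 in SIRT6 cells, 11.86 in empty vector cells and 11.88 in untransfected cells. Without TNFα they lay wider apart, at 9.57, 9.26, 8.99 and 8.86 in the same order, so that the difference stood mainly in the cells without TNFα.

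CALCB, which encodes a calcitonin gene-related peptide, had the same pattern. It was at 10.56, 10.45 and 10.46 with TNFα and at 9.64, 9.68 and 9.57 without it in H133W cells, and at 10.53, 10.52 and 10.52 with TNFα and 9.02, 9.02 and 9.06 without it in empty vector cells. The stimulated arrays of both kinds of cells lay together, and the H133W arrays without TNFα lay above those of the empty vector. It changed by 0.86 in H133W cells, 1.26 in SIRT6 cells, 1.49 in empty vector cells and 1.81 in untransfected cells, with a difference of −0.63 against empty vector cells (SE 0.0850, adjusted p = 0.0192) and −0.94 against untransfected cells (adjusted p = 3.99e-05). Without replicate 3 the differences of CALCB and IER3 against empty vector cells were −0.61 and −0.71 and no longer passed (adjusted p = 0.0618 for both). The same held without stimulated replicate 2 and without H133W replicate 1 or 2 (adjusted p = 0.0907 to 0.113), and for IER3 without H133W replicate 3 (adjusted p = 0.0893). Those against untransfected cells still did (−0.93 for CALCB and −0.85 for IER3, adjusted p = 0.000127 and 0.00472).

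Next in order came NFKBIA and DNAJB1, which did not pass. NFKBIA changed by 1.85 in H133W cells, 2.13 in SIRT6 cells, 2.34 in empty vector cells and 2.48 in untransfected cells, a difference of −0.63 against untransfected cells (adjusted p = 0.0721) and of −0.49 against empty vector cells (adjusted p = 0.567). DNAJB1 changed by 0.40 in H133W cells, 0.11 in SIRT6 cells, −0.0616 in empty vector cells and −0.0793 in untransfected cells, a difference of 0.46 against empty vector cells (adjusted p = 0.0856) and 0.48 against untransfected cells (adjusted p = 0.0515, and 0.0417 without replicate 3). Its H133W arrays lay above those of the other cells in both conditions. EMILIN2, an extracellular matrix glycoprotein, changed by 0.31 in H133W cells and 1.24 in untransfected cells (difference −0.93, adjusted p = 0.0721). The genes of smallest p against SIRT6 cells were UTP11, LINC00845, CRYAB, CALCB and TMEM52B, each at an adjusted p of 0.851. TMEM52B, a membrane protein, changed by 1.40 in H133W cells and 2.13 in SIRT6 cells, with values of 3.66, 3.66 and 3.73 with TNFα and 2.41, 2.17 and 2.28 without it in H133W cells. Dim probe sets of CCT8 and POLR2A, chaperonin and RNA polymerase subunits, came next to these against empty vector cells (differences of −0.75 and −0.87, adjusted p = 0.567 for both).

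**Figure D5:**
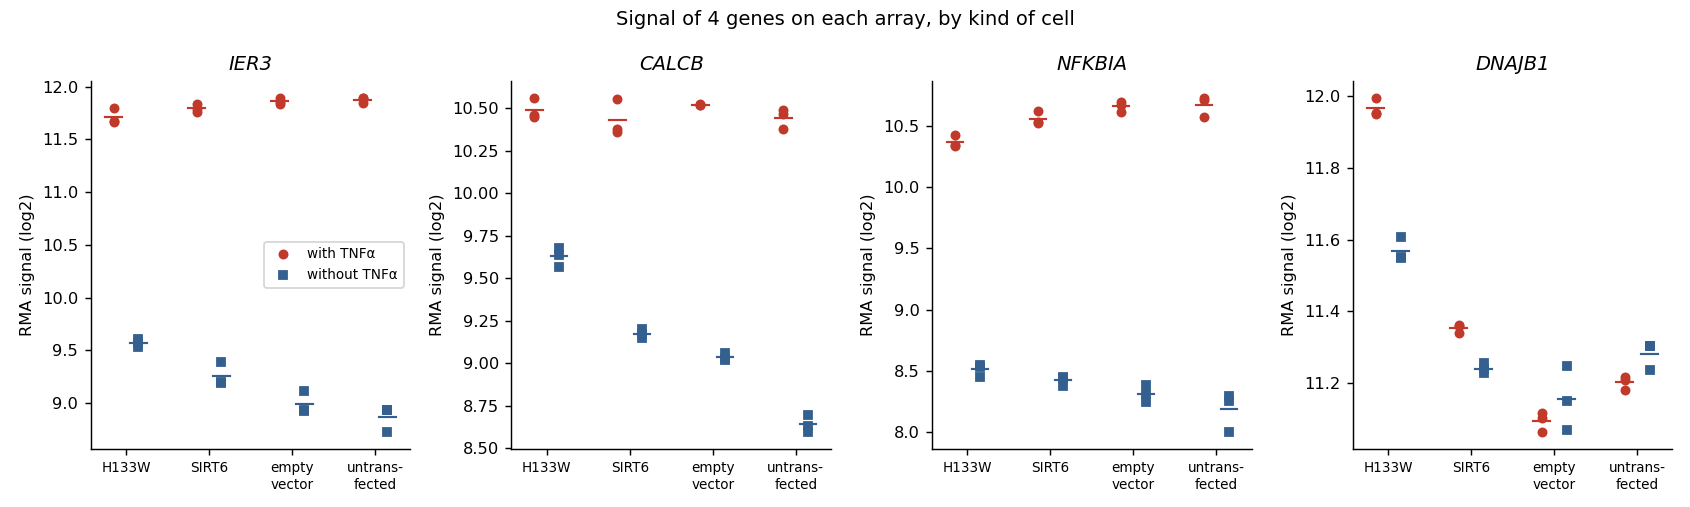
RMA signal (log2, vertical axis) of IER3, CALCB, NFKBIA and DNAJB1 on each array by kind of cell, red with TNFα and blue without it, with bars at the means. For IER3 and CALCB the stimulated arrays of the 4 kinds of cells lie close together, while the H133W arrays without TNFα lie highest, at means of 9.57 and 9.63.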

How the data were processed

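RNA of 24 HEK293 cultures was measured on whole-genome expression arrays from Affymetrix. By the study's methods ArrayStudio served for RMA, and what the authors deposited is on the log2 scale, 1 value per probe set and array, from 1.52 to 13.8, with array medians of 5.30 to 5.38. No further normalization or filter was applied to them. RMA takes the arrays together and flattens low signals, so that changes of dim genes are understated and a degraded sample is not removed. Each of the 24 columns matched a sample by its label, and 0 columns were without one. Depth has no meaning for arrays, and their number limits the precision.

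Probe sets were named by the platform table, updated by Entrez ID (41097 of 1 gene, 1801 of several, 11777 of none), and the 19775 genes were each read by the probe set of highest mean. A linear model with a mean for each of 8 conditions was fitted to the 24 arrays (R 4.3.3, limma 3.58.1, Python 3.11.15, pandas 2.3.3), as in the general linear model of the methods, with Benjamini-Hochberg adjustment over all probe sets. The residual degrees of freedom were 16. Replicates are biological replicates by the study's account. The fit was tested on simulated data with the same noise on all 24 arrays. That setting leaves out the wider spread of H133W + TNFα replicate 3, so the test does not cover it.

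Named genes were the 15 largest rises and 15 largest falls with separate arrays, up to 6 called members of each of 31 lists (or 2 where none was called), the genes of the study's text, the sirtuins and the 5 smallest p of each interaction. The comparison, members and lists were chosen with earlier results of these data known. Alternatives were a plain linear model, the 6 arrays alone, a variance trend, quantile normalization, centring, leaving out dim probe sets, array weights, a replicate block, no fold threshold, for each gene the probe set of largest SD, and omission of each of the 6 arrays. Protein, imaging and blot experiments were not analysed here.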

Additional observations from a re-analysis of the deposited data

Results flagged for a closer look

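CALCB and IER3 rose less with TNFα in H133W cells than in empty vector and untransfected cells. The difference of the changes (H133W minus the other, log2 scale) was −0.63 against empty vector cells and −0.94 against untransfected cells for CALCB, and −0.73 and −0.87 for IER3. These 4 differences passed the interaction test of limma over all probe sets (adjusted p = 0.0192 and 3.99e-05 for CALCB and 0.0192 and 0.00133 for IER3), and those against empty vector cells did not pass without H133W + TNFα replicate 2 or 3 or H133W replicate 1 or 2. Against SIRT6 cells the differences were −0.40 for CALCB and −0.39 for IER3 and did not pass (adjusted p = 0.851 for both).

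For DNAJB1 and LYZ all arrays with TNFα lay above all arrays without it in H133W cells, and below them in untransfected cells. DNAJB1 changed by 0.40 in H133W cells and by −0.0793 in untransfected cells, and the difference of 0.48 had an adjusted p of 0.0515. LYZ, lysozyme, a marker of blood cells that is dim on these arrays, changed by 0.51 in H133W cells and by −0.27 in untransfected cells, a difference of 0.77 with an adjusted p of 0.612. Its stimulated H133W values were 2.77, 2.63 and 3.62, against 2.59, 2.44 and 2.48 without TNFα, and the change was 0.20 without replicate 3. Without stimulated replicate 1 or 2 it was 0.62 or 0.70 and passed the threshold of the test.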

How the results depend on the processing

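Calls up and down numbered 78 and 20 probe sets and 49 and 11 genes in the fit of the 6 arrays alone, and 705 and 1068 probe sets and 357 and 486 genes without the fold threshold. Leaving out 1 of the 6 arrays gave 241 to 590 probe sets and 136 to 243 genes up, and 202 to 1229 probe sets and 96 to 271 genes down. The highest counts came without H133W + TNFα replicate 1 (590 and 1229 probe sets, 243 and 271 genes) and the lowest count of falls among probe sets without replicate 3. The share of upward calls among probe sets was 48.7% as deposited, 60.4% with centred arrays, 60.8% with array weights and 79.6% on the 6 arrays alone. Interactions called against empty vector cells were 0 to 2 when an array was left out and 0 without the 3 arrays of lowest weight, an alternative chosen after seeing the data. Against untransfected cells they were 2 to 5 when an array was left out, 8 in the plain linear model, 7 with a variance trend, 5 with quantile normalization, 14 without dim probe sets, 40 with array weights and 5 without the 3 arrays. Against SIRT6 cells array weights gave 1. The 3 arrays of lowest weight were H133W + TNFα replicate 3, empty vector replicate 2 and untransfected replicate 2. The median change of the probe sets that rose in untransfected cells was 0.72 with quantile normalization and 0.73 with centring. Reading each gene by the probe set of largest SD turned the direction of MAML2 (−0.0242) and of POLR2A (−0.60). Of 71 named genes that were called 36 had other probe sets, and 12 of these had one of opposite sign, each of them dim and none called. Of the 71 called genes among the 110 named, 38 lost their call on the 6 arrays alone, 11 without H133W + TNFα replicate 3, 10 with array weights and 1 to 8 when another of the 6 arrays was left out. The differences of DNAJB1, NFKBIA and EMILIN2 against untransfected cells passed with a variance trend, quantile normalization, array weights or without dim probe sets. In the 6 arrays of H133W cells deviations from the group means correlated at 0.0496, −0.233 and −0.193 for the same replicate number. With 3 arrays per group these deviations depend on each other, so they cannot decide whether replicate numbers pair the arrays. With the replicate number as a block 295 probe sets were called up and 301 down, and the calls of the 110 named genes did not change. The cause of these shifts was not tested.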
